A study of Mus musculus with 24 samples.

Results

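Clade B serpins are a family of protease inhibitors, and 10 of them were followed in mouse primary keratinocytes, the epithelial cells of the epidermis. The members were Serpinb1a, Serpinb2, Serpinb3a, Serpinb3d, Serpinb5, Serpinb6b, Serpinb9b, Serpinb9e, Serpinb11 and Serpinb12. They were chosen by gene symbol, out of 19937 genes and out of 24 clade B serpins that the array measured singly. The list was drawn up with earlier results of the same arrays known, so counts over it are descriptions. Each gene was to be read from its probe set with the highest mean over all arrays, and each member had only 1 probe set that carried its symbol alone. Total RNA of C57/BL6 keratinocytes was hybridised to 24 Affymetrix Mouse Gene ST arrays, 3 in each of 8 groups. The cells were wild-type or null for Ppar-beta (gene Ppard), a nuclear receptor that binds fatty acids. After 2 days of culture they were mock transduced or infected for 48 hours with a retrovirus carrying an activated Hras oncogene (Hras cells below). Both kinds received either the solvent DMSO or 1 uM GW0742, a synthetic ligand of the receptor, for 24 hours. The 8 groups are all combinations of genotype, virus and ligand. Whether the 3 arrays of a group came from different animals or cultures is not stated in the labels. The p-values therefore rest on the spread among these arrays, which may be technical only. The labels name no batch.

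Serpins inhibit proteases as a bait: the protease cuts an exposed reactive centre loop, and the serpin then springs into a new fold and holds the enzyme in a covalent complex. Clade B members resemble ovalbumin, lack a classical signal peptide and act mostly inside cells, against serine proteases and in some cases cysteine proteases such as cathepsins. Stratified epithelium is rich in them. In the mouse the family lies in a pair of gene clusters, on chromosomes 1 and 13, where local duplication has produced many close copies. Serpinb5, Serpinb12, Serpinb3a, Serpinb3d, Serpinb11 and Serpinb2 lie on chromosome 1, in that order. Serpinb1a, Serpinb6b, Serpinb9b and Serpinb9e lie on chromosome 13, in that order.

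The promoter sequences are shown for 3 members that the results below turn on: Serpinb9e, whose level depended on GW0742 and Hras together, Serpinb3a, which fell most with Hras, and Serpinb2, which rose with GW0742 in both wild-type backgrounds. RefSeq windows of 300 bases (GRCm38.p6), from 250 bases before to 50 after an annotated transcript start, were found for 9 of the 10 members. No window was matched for Serpinb1a. Capitals mark matches, on either strand, to TGANTCA (N is any base) or to AGGTCA, the core bound by nuclear receptors. TGANTCA is a loosened form of the site of AP-1 (Fos and Jun proteins), which has C or G in the middle. All matches in the members have A or T there, so none is the AP-1 site itself. Serpinb9e lies at chr13:33249358-33249657 on the plus strand, Serpinb3a at chr1:107052254-107052553 on the minus strand, and the window shown for Serpinb2 at chr1:107511173-107511472 on the plus strand. Each is printed 5′ to 3′ along its gene.
Serpinb9e: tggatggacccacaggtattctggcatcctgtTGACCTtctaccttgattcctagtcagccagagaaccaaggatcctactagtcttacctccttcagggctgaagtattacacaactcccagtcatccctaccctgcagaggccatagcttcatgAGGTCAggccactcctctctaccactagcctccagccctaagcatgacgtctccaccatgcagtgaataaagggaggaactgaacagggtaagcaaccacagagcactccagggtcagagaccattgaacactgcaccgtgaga
Serpinb3a: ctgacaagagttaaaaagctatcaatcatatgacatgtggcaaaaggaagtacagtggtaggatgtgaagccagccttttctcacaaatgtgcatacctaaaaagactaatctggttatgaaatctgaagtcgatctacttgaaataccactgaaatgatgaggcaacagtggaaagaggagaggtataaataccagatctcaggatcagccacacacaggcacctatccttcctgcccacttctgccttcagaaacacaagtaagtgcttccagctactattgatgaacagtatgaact
Serpinb2: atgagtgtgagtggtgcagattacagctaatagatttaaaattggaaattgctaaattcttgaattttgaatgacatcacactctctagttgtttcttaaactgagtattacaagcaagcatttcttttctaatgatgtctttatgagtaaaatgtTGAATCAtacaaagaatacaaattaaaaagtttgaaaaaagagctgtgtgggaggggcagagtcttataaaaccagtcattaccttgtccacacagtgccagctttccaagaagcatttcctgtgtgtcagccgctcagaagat

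Positions are counted from the annotated start, negative before it. The Serpinb9e window held AGGTCA at position -94 and its reverse complement, TGACCT, at position -218. The Serpinb3a window held neither motif. TGANTCA was found in 4 of the 9 members with a window, against 3 of the 17 other clade B serpins with one and 8.97% of all genes with one. These 4 members all lie in the chromosome 1 cluster, where Serpinb2 and Serpinb12 had 2 windows each. The chromosome 13 members with a window were only Serpinb6b, Serpinb9b and Serpinb9e. None of them matched, but they are too few to show a difference between the clusters. The TGANTCA matches are printed with the neighbouring bases.
Serpinb2 (position -94): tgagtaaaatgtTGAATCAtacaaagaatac
Serpinb5 (position -140): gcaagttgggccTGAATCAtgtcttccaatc
Serpinb11 (position -181): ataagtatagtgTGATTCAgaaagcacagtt
Serpinb11 (position -76): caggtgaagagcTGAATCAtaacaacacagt
Serpinb12 (position -45): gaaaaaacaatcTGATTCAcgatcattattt

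AGGTCA was present in 3 of the 9 members (Serpinb3d, Serpinb9e and Serpinb12), in 10 of the 17 others and in 18.1% of all genes. The paired element of Ppar and its partner RXR, 2 copies of AGGTCA on 1 strand separated by 1 base (DR1), occurred in 0.0481% of genes and in 0 of the 9 members. The AGGTCA core is contained in it by construction, and no AGGTCA match overlapped a TGANTCA match. These matches describe letters in short windows and are not measurements of binding.

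Values are RMA log2 expression levels: 1 unit is a 2-fold difference, and levels of different probe sets cannot be set against each other. Values in the whole table ran from 2.27 to 14.8, and array medians from 7.46 to 7.53. The keratinocyte markers Krt5 and Krt14 lay between 13.98 and 14.30 and between 13.94 and 14.15 over all arrays, near the top of the table. The Ppard probe set read 11.19 ± 0.07 (SD, n = 3) in wild-type and 10.62 ± 0.02 in null mock DMSO cells. In Hras DMSO cells it read 11.645 ± 0.043 in wild-type and 11.364 ± 0.023 in null cells, so the genotypes lay closer there. The deleted exons are not named in the sources used here, so this is a weak check of the genotype. The median gene's SD within a group lay between 0.0647 and 0.0798 in 7 groups and was 0.122 in null Hras GW0742 cells, whose arrays scattered more.

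The members differed widely in how far their group means ranged. Serpinb3a spanned 4.83 log2 units over the 8 groups, a 28.4-fold range of readings, and Serpinb9e spanned 3.84, a 14.4-fold range. Serpinb12 spanned 2.19, Serpinb9b 1.66, Serpinb6b 1.54, Serpinb11 1.53 and Serpinb3d 1.42. Serpinb1a, Serpinb5 and Serpinb2 spanned 0.65, 0.61 and 0.57, and Serpinb2 and Serpinb5 stayed above 12.4 on every array. The members did not share 1 pattern: over the 8 group means, Pearson's r between members ran from 0.96 (Serpinb3a and Serpinb3d, adjacent genes) to -0.69 (Serpinb3d and Serpinb9e). All points of such a correlation come from the same 24 arrays, and these values are descriptions.

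**Figure D1:**
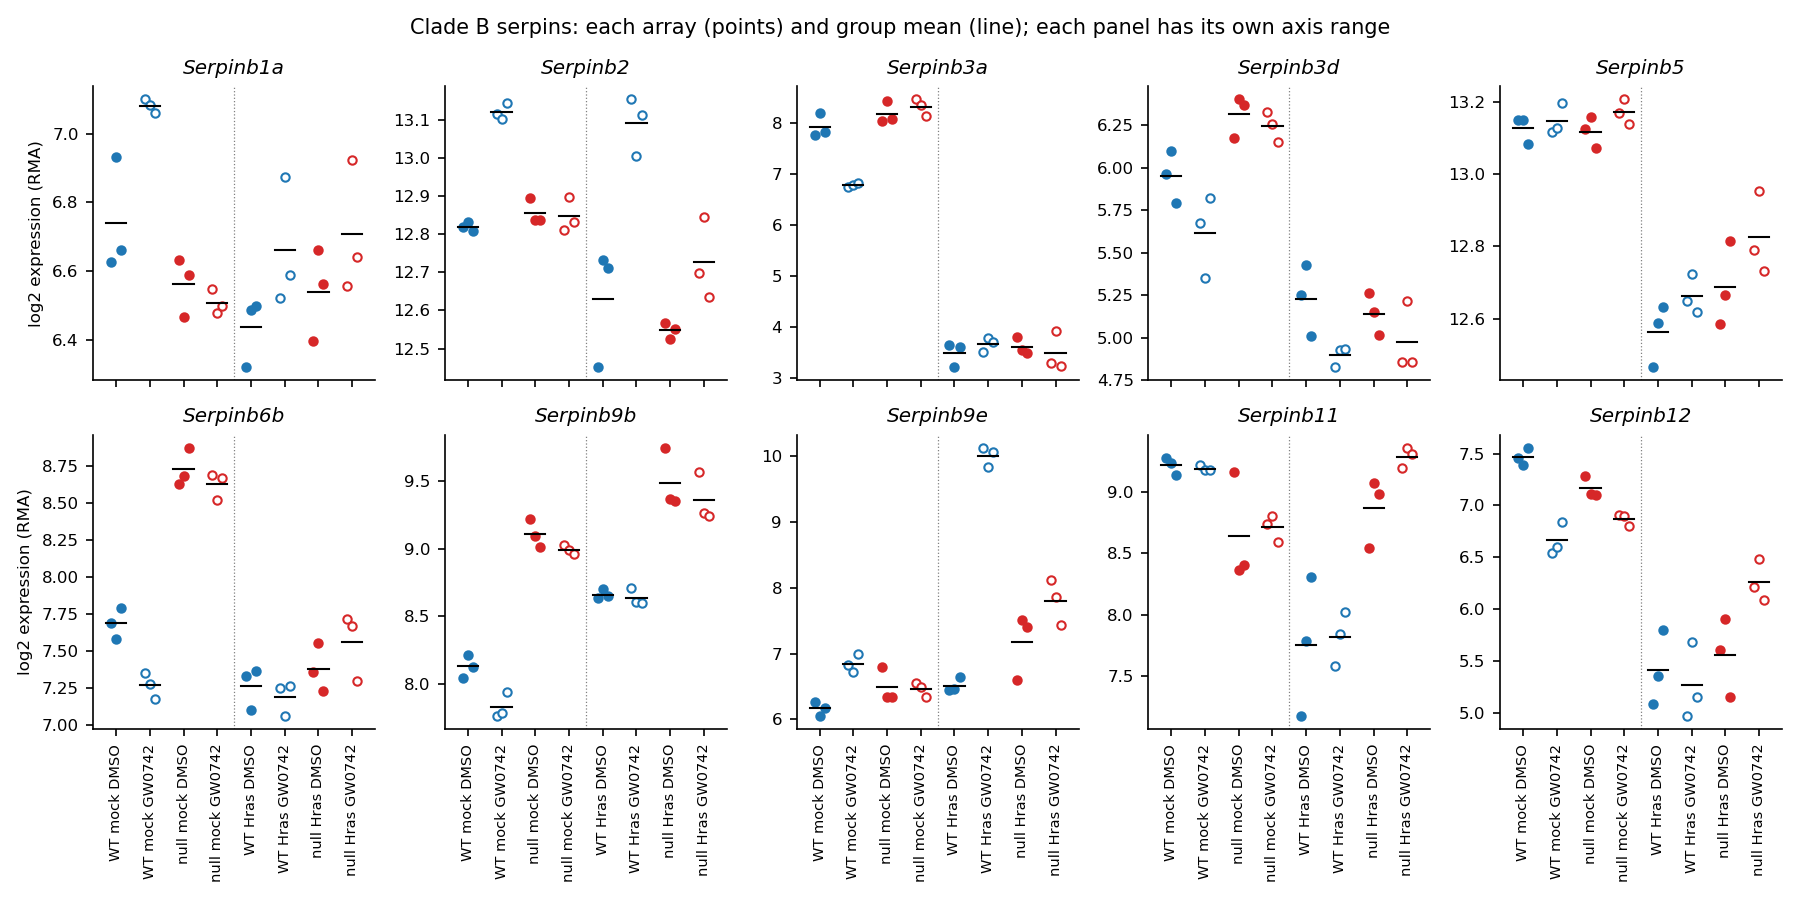
RMA log2 level of each of the 10 serpins (1 panel each, y axis) in the 8 groups (x axis), with 1 point per array and a line at each mean, blue for wild-type and red for null, open symbols for GW0742. Serpinb3a falls to between 3.21 and 3.92 on all Hras arrays, and Serpinb9e stands at 9.84 to 10.13 on the 3 wild-type Hras arrays with GW0742.

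Hras infection lowered most members and Serpinb3a by far the most. In wild-type DMSO cells 8 of 10 members fell and 1 rose, where 37.4% of all genes passed (18.4% higher, 19.0% lower), with a median member change of -0.49 against 0.02 over all genes. In null DMSO cells 6 fell and 2 rose, where 40.7% of all genes passed (20.2% higher, 20.5% lower), with a median of -0.37 against 0.00. A gene passed where limma's p, adjusted over all genes tested, was under 0.05. With so many genes passing, a call alone says little about a member, and the sizes of the changes are given for each.

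Serpinb3a, a mouse relative of the squamous cell carcinoma antigens that inhibit serine and cysteine proteases, read 7.76, 8.18 and 7.82 in wild-type mock DMSO cells and 3.64, 3.21 and 3.61 in wild-type Hras DMSO cells. Null cells gave 8.04, 8.42 and 8.07 against 3.80, 3.55 and 3.50. The groups lay more than 4 log2 units apart with no overlap, and the Hras values were near the low end of the table. The fall was 4.43 ± 0.16 (SE) in wild-type cells (21.6-fold, limma adjusted p = 3.26e-15) and 4.56 ± 0.16 in null cells (23.6-fold, adjusted p = 1.7e-15). The Hras readings were not shown to lie above background, so these folds, like the range over groups, are ratios of readings and at most lower bounds on the change. The difference between genotypes was -0.13 (95% interval -0.60 to 0.34, adjusted p = 0.799), with the same limit.

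Its neighbour Serpinb3d, of the same subfamily, fell less. It read 5.96, 6.10 and 5.79 in wild-type mock DMSO cells and 5.25, 5.43 and 5.01 with Hras, a change of -0.72 ± 0.12 (adjusted p = 4.66e-05). In null cells 6.18, 6.40 and 6.37 became 5.26, 5.15 and 5.01, a change of -1.17 ± 0.12 (adjusted p = 5.32e-08). The larger fall in null cells missed the threshold as a difference (-0.45, 95% interval -0.81 to -0.09, adjusted p = 0.0815). It passed without the third wild-type Hras DMSO array (-0.56, adjusted p = 0.0288). Serpinb3d is among the dimmest 40% of genes, and its Hras readings were not shown to lie above background. Its falls and their difference therefore have the same limit as those of Serpinb3a.

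Serpinb12, an inhibitor of trypsin-like proteases, had the second largest fall. Its wild-type mock DMSO arrays read 7.46, 7.39 and 7.55 and the Hras arrays 5.09, 5.36 and 5.80, so that it fell by 2.05 ± 0.18 (4.14-fold, adjusted p = 5.65e-09). In null cells the arrays read 7.28, 7.11 and 7.11 without and 5.61, 5.90 and 5.16 with Hras, a fall of 1.61 ± 0.18 (3.05-fold, adjusted p = 2.03e-07). Neither pair overlapped, and the Hras arrays were more scattered than the mock arrays in both genotypes. Serpinb12 is among the dimmest 40% of genes, and its Hras readings were not shown to lie above background. Its falls therefore have the same limit as those of Serpinb3a.

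Serpinb5 (maspin), which has the serpin fold but is not known to inhibit proteases, is a strongly expressed epithelial gene and moved little but evenly. Its level went from 13.15, 13.15 and 13.08 to 12.47, 12.59 and 12.63 in wild-type cells (-0.56 ± 0.06, adjusted p = 1.91e-07). In null cells it went from 13.12, 13.16 and 13.07 to 12.59, 12.66 and 12.81 (-0.43 ± 0.06, adjusted p = 7.83e-06). Its small spread between arrays is what lets a change below 1.5-fold pass.

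Serpinb2, plasminogen activator inhibitor type 2, which blocks urokinase and tissue plasminogen activator, changed least among those that fell. Its wild-type arrays read 12.82, 12.83 and 12.81 without and 12.45, 12.73 and 12.71 with Hras (-0.19 ± 0.06, adjusted p = 0.0248). The first Hras array is the low one, and without it the change was -0.10 (adjusted p = 0.227). Without the first or the second wild-type mock DMSO array the adjusted p was 0.0557 and 0.0682, and with arrays centred on their medians or fitted with these groups alone it was 0.0974 each time. In null cells Serpinb2 went from 12.89, 12.84 and 12.84 to 12.57, 12.53 and 12.55, with no overlap (-0.31 ± 0.06, adjusted p = 0.000448).

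Serpinb1a, an inhibitor of neutrophil elastase and related proteases, read 6.63, 6.93 and 6.66 in wild-type mock DMSO cells and 6.32, 6.49 and 6.50 with Hras (-0.30 ± 0.10, adjusted p = 0.02). The call was lost without the second mock array (-0.21, adjusted p = 0.147), without the first Hras array (-0.25, adjusted p = 0.101) and with arrays centred (-0.26, adjusted p = 0.0532). In null cells its 3 mock and 3 Hras arrays overlapped, and the change was -0.02 (95% interval -0.23 to 0.19, adjusted p = 0.906).

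For 2 members the response to Hras differed between genotypes, where 16.8% of all genes did. Serpinb11, an epithelial serpin, read 9.28, 9.24 and 9.14 in wild-type mock DMSO cells and 7.17, 7.79 and 8.30 with Hras, a fall of 1.47 ± 0.21 (2.76-fold, adjusted p = 7.36e-06). In null cells it read 9.16, 8.37 and 8.41 without and 8.54, 9.08 and 8.99 with Hras. These arrays overlapped, and the change was 0.22 (95% interval -0.22 to 0.67, adjusted p = 0.471). The difference between the changes, null minus wild-type, was 1.69 ± 0.30 (adjusted p = 0.000406).

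Serpinb6b, related to the broad serine protease inhibitor Serpinb6a, went the other way: it fell in both genotypes and more in null cells. Wild-type arrays went from 7.69, 7.58 and 7.79 to 7.33, 7.10 and 7.36 (-0.42 ± 0.11, adjusted p = 0.00282). Null arrays went from 8.63, 8.68 and 8.87 to 7.35, 7.55 and 7.23 (-1.35 ± 0.11, adjusted p = 7.95e-10). The difference was -0.93 ± 0.15 (adjusted p = 0.00016). The null cells started higher and both genotypes ended close together with Hras.

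Serpinb9b rose with Hras in both genotypes. It belongs with Serpinb9e to a group of mouse relatives of Serpinb9, the inhibitor of granzyme B. It went from 8.05, 8.22 and 8.13 to 8.63, 8.70 and 8.65 in wild-type cells (0.53 ± 0.09, adjusted p = 7.43e-05) and from 9.22, 9.09 and 9.01 to 9.74, 9.37 and 9.35 in null cells (0.38 ± 0.09, adjusted p = 0.00187). The first null Hras array was the highest, and without it the null change was 0.25 (adjusted p = 0.0207). Serpinb9e gave 0.35 ± 0.19 in wild-type cells (adjusted p = 0.164, and 0.00777 with only these groups in the fit). It rose by 0.69 ± 0.19 in null cells (adjusted p = 0.00456), where the arrays overlapped: 6.79, 6.34 and 6.33 without Hras and 6.60, 7.51 and 7.41 with it. Its null minus wild-type difference was 0.34 (adjusted p = 0.474), and 0.62 (adjusted p = 0.0464) without the first null Hras DMSO array.

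**Figure D2:**
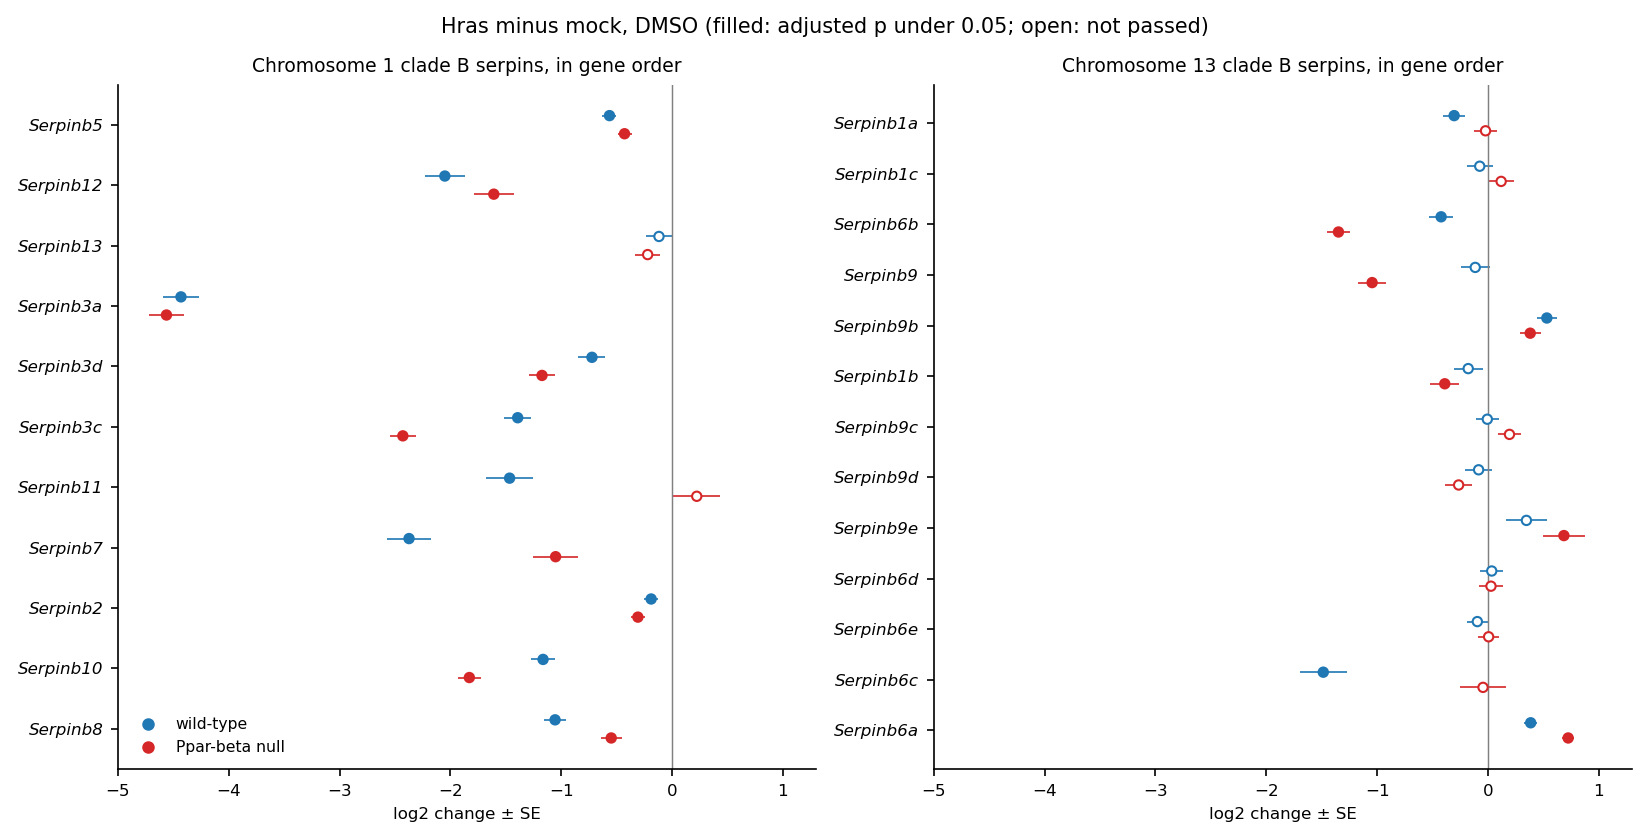
Hras minus mock difference in DMSO cells (x axis, log2 units, bars are SE) of all 24 measured clade B serpins in gene order, in 1 panel for chromosome 1 and 1 for chromosome 13, blue for wild-type and red for null, filled where the adjusted p was under 0.05. Serpinb3a lies at -4.43 and -4.56, far left of the other genes, while Serpinb11 lies at -1.47 in wild-type and 0.22 in null cells.

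Markers of other states and cell types moved in the same arrays. With Hras, 7 of 8 measured markers of differentiated keratinocytes fell in wild-type cells and 6 of 8 in null cells, where 1 rose. The log2 of their summed level went from between 15.53 and 15.54 to between 13.57 and 13.98 in wild-type, and from between 15.65 and 15.67 to between 14.25 and 14.50 in null cells. All 8 melanocyte markers fell in both genotypes, as did all 8 fibroblast markers in wild-type cells and 5 of 8 in null cells, where 1 rose. Of 9 basal markers 6 fell in wild-type cells, and in null cells 5 fell and 1 rose. Of 14 leukocyte markers 4 fell in each genotype, and 2 rose in null cells. Of the 10 neutrophil and mast cell markers 2 rose in wild-type cells, S100a8 by 2.11 and S100a9 by 1.82, and 8 did not pass. In null cells 3 rose, and none fell in either genotype. The log2 sum of this list went from between 10.26 and 10.44 to between 11.79 and 11.87 in wild-type cells, where S100a8 and S100a9 read highest. In null cells it went from between 9.95 and 10.21 to between 11.40 and 11.53. Of 5 endothelial markers 2 rose and 1 fell in each genotype. Array values have no true zero, so no marker can be called absent. Their part in the members' changes was not tested. In bulk RNA, fewer cells of a type and less RNA per cell cannot be told apart.

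Among the members, GW0742 had its largest effect on Serpinb9e, in wild-type Hras cells. In wild-type mock cells 1 member rose and 3 fell, where 2.86% of all genes passed (1.25% higher, 1.61% lower), with a median member change of -0.16 against 0.00 over all genes. In wild-type Hras cells 2 rose and none fell, where 6.11% of all genes passed (4.46% higher, 1.65% lower), with a median of 0.08 against -0.01. In null mock cells no member passed in limma's test, nor did any of the 19937 genes (0% of all genes, with 1097 at an unadjusted p under 0.05). In null Hras cells 1 member rose, where 5.02% of all genes passed.

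Serpinb9e read 6.45, 6.46 and 6.64 in wild-type Hras cells with DMSO and 10.13, 9.84 and 10.06 with GW0742. The lowest treated array stood more than 3 log2 units above the highest DMSO array. It rose by 3.50 ± 0.19 (SE), which is 11.3-fold (limma adjusted p = 3.02e-11), and with any 1 array left out the rise stayed between 3.44 and 3.58.

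In wild-type mock cells Serpinb9e read 6.27, 6.05 and 6.18 with DMSO and 6.82, 6.72 and 6.99 with GW0742. The arrays did not overlap, and the change of 0.68 ± 0.19 missed the threshold (adjusted p = 0.0537). It passed when only these 2 groups were fitted (adjusted p = 0.00592) and when the scattered null Hras GW0742 group was left out of the model (adjusted p = 0.0301). It also passed without any 1 of 5 arrays of other groups, namely null Hras DMSO 1 and 2, null Hras GW0742 1 and 3 and null mock DMSO 1 (adjusted p between 0.0078 and 0.0438). The difference between the changes in Hras and mock cells was 2.82 ± 0.26 (adjusted p = 2.68e-06), where 2.47% of all genes differed.

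Null cells gave much smaller values for the same gene. In null mock cells the arrays read 6.79, 6.34 and 6.33 with DMSO and 6.56, 6.49 and 6.34 with GW0742, a change of -0.03 (95% interval -0.42 to 0.36, adjusted p = 0.995). In null Hras cells they read 6.60, 7.51 and 7.41 against 8.12, 7.86 and 7.43, overlapping, with a change of 0.63 ± 0.19 (adjusted p = 0.0536). That change passed without the second (0.80, adjusted p = 0.0216) or the third (0.75, adjusted p = 0.043) null Hras DMSO array, without the third null Hras GW0742 array (0.82, adjusted p = 0.0189) and without the first null mock DMSO array (0.63, adjusted p = 0.0457). The null minus wild-type difference of the GW0742 change in Hras cells was -2.87 ± 0.26 (adjusted p = 6.08e-07), where 1.73% of all genes differed, and it lay between -3.15 and -2.68 with any 1 array left out.

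**Figure D3:**
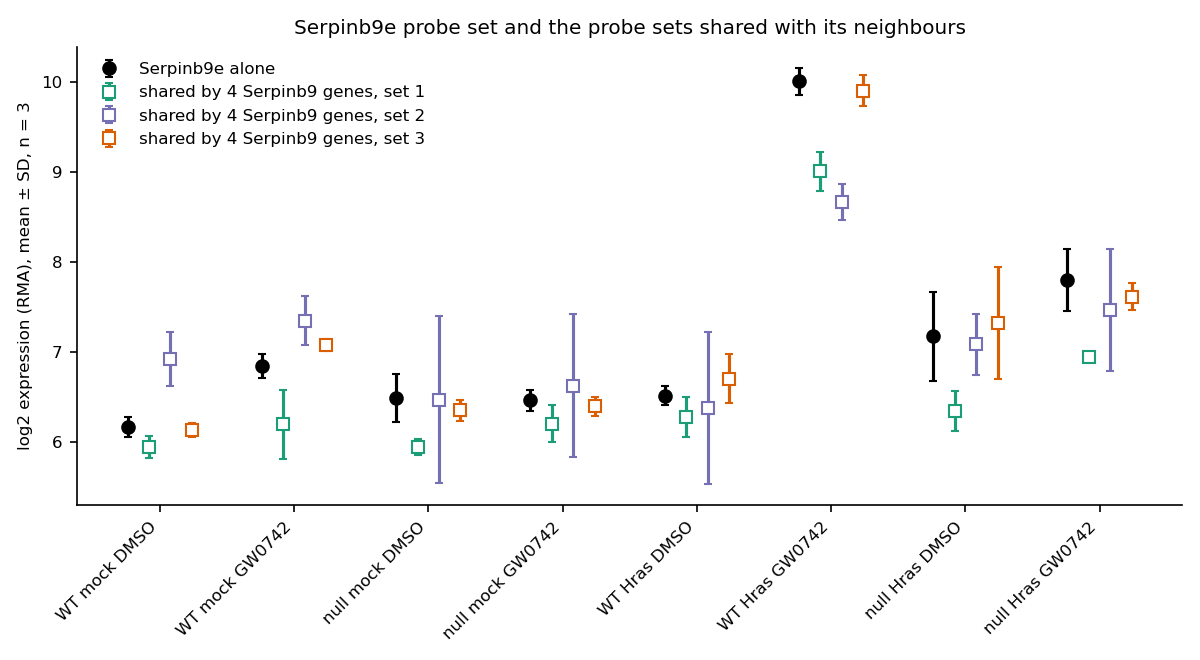
Mean RMA log2 level (y axis, bars are SD, n = 3) by group (x axis) of the Serpinb9e probe set (black) and of 3 probe sets assigned jointly to Serpinb9d, Serpinb9e, Serpinb9f and Serpinb9g (open squares). All 4 probe sets have their highest mean in the wild-type Hras GW0742 group, 10.01 for the Serpinb9e probe set.

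The platform assigns 3 further probe sets to Serpinb9d, Serpinb9e, Serpinb9f and Serpinb9g together, which are near copies, so which gene they read cannot be told. In wild-type Hras cells their group means went from 6.27 to 9.01, from 6.38 to 8.66 and from 6.70 to 9.91 with GW0742. These probe sets lay outside the gene-level fit and have no test. Serpinb9d, read by a probe set of its own, rose by 0.60 ± 0.12 in the same comparison (adjusted p = 0.00209), from 3.69 to 4.29. These low readings were not shown to lie above background. The smaller value therefore does not show a smaller response than that of Serpinb9e. Signal from a near copy in the Serpinb9e probe set was not tested.

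Serpinb2 was the second member that rose with GW0742 in wild-type cells, with and without Hras. It went from 12.82, 12.83 and 12.81 to 13.11, 13.10 and 13.14 in mock cells (0.30 ± 0.06, 1.23-fold, adjusted p = 0.0102) and from 12.45, 12.73 and 12.71 to 13.15, 13.00 and 13.11 in Hras cells (0.46 ± 0.06, 1.37-fold, adjusted p = 5.14e-05). Neither pair overlapped. Without the third wild-type mock GW0742 array the mock change was 0.29 (adjusted p = 0.0519).

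In null cells the Serpinb2 arrays overlapped in mock cells (-0.01, 95% interval -0.14 to 0.13, adjusted p = 0.995). In null Hras cells 12.57, 12.53 and 12.55 stood against 12.70, 12.85 and 12.64, without overlap, a change of 0.18 ± 0.06 (adjusted p = 0.133) that passed under trended, robust variance moderation (adjusted p = 0.0483). The null minus wild-type difference missed the threshold in mock cells (-0.31, 95% interval -0.50 to -0.12, adjusted p = 0.162) and in Hras cells (-0.28, 95% interval -0.47 to -0.09, adjusted p = 0.174). In mock cells it passed with only the groups compared in the fit (adjusted p = 0.0233) and under trended, robust moderation (adjusted p = 0.0413).

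Serpinb3a fell with GW0742 in wild-type mock cells. Its arrays went from 7.76, 8.18 and 7.82 to 6.73, 6.78 and 6.82, a fall of 1.14 ± 0.16 (2.21-fold, adjusted p = 0.000138) with no overlap. Null mock arrays read 8.04, 8.42 and 8.07 with DMSO and 8.45, 8.35 and 8.13 with GW0742 (0.13, 95% interval -0.20 to 0.47, adjusted p = 0.964). The difference between genotypes, null minus wild-type, was 1.28 ± 0.23 (adjusted p = 0.00387), where 0.848% of all genes differed. In wild-type Hras cells, where Serpinb3a was already near the low end of the table, the change was 0.17 (95% interval -0.16 to 0.51, adjusted p = 0.696), and the Hras minus mock difference was 1.32 ± 0.23 (adjusted p = 0.00178). At 3.21 to 3.79 on the wild-type Hras arrays a further fall could hardly appear, so this difference does not show an unequal response to the ligand.

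Serpinb12 and Serpinb6b also fell in wild-type mock cells, less securely. Serpinb12 went from 7.46, 7.39 and 7.55 to 6.55, 6.60 and 6.85 (-0.80 ± 0.18, 1.75-fold, adjusted p = 0.0154). The call was lost without the first or the third DMSO array (adjusted p = 0.0505 and 0.069) or without the first or the second GW0742 array (adjusted p = 0.0923 and 0.0643). Serpinb6b went from 7.69, 7.58 and 7.79 to 7.35, 7.27 and 7.17 (-0.42 ± 0.11, 1.34-fold, adjusted p = 0.0322). It lost its call without any 1 of these 6 arrays, with adjusted p between 0.0512 and 0.157. The count of passing members was 2, not 4, without the first or the third DMSO array or any 1 of the 3 GW0742 arrays.

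In null Hras cells Serpinb12 was the member that rose. It went from 5.61, 5.90 and 5.16 to 6.21, 6.49 and 6.09, with no overlap (0.71 ± 0.18, 1.63-fold, adjusted p = 0.0257). It lost its call without the first null Hras DMSO array (0.73, adjusted p = 0.0648), the third (0.51, adjusted p = 0.138) or the second null Hras GW0742 array (0.59, adjusted p = 0.17), and with these 2 groups alone in the fit (adjusted p = 0.226). In wild-type Hras cells its change was -0.14 (95% interval -0.52 to 0.24, adjusted p = 0.804). The difference between genotypes was 0.85 (95% interval 0.31 to 1.39, adjusted p = 0.132) and passed without the second wild-type Hras GW0742 array (1.06, adjusted p = 0.0321). The Hras readings of Serpinb12 were not shown to lie above background, which limits both changes and their difference.

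The other 5 members passed in none of the 4 ligand comparisons. Serpinb1a read 6.63, 6.93 and 6.66 with DMSO and 7.10, 7.09 and 7.06 with GW0742 in wild-type mock cells, without overlap, a change of 0.34 ± 0.10 (adjusted p = 0.0786). Without the second DMSO array it was 0.44 (adjusted p = 0.0378), and without the null Hras GW0742 group in the model the adjusted p was 0.0413. It was 0.0484 and 0.0457 without the second GW0742 array of the wild-type Hras or of the null Hras group. Serpinb9b changed by -0.30 ± 0.09 in the same cells (adjusted p = 0.103) and passed without the first null Hras DMSO array (adjusted p = 0.031) or the first null Hras GW0742 array (adjusted p = 0.0476). Serpinb3d changed by -0.34 ± 0.12 in wild-type mock cells (adjusted p = 0.183) and by -0.33 ± 0.12 in wild-type Hras cells (adjusted p = 0.131), where it passed without the third DMSO array (-0.44, adjusted p = 0.0474). In wild-type mock cells Serpinb5 changed by 0.02 (95% interval -0.11 to 0.15) and Serpinb11 by -0.03 (95% interval -0.47 to 0.42).

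**Figure D4:**
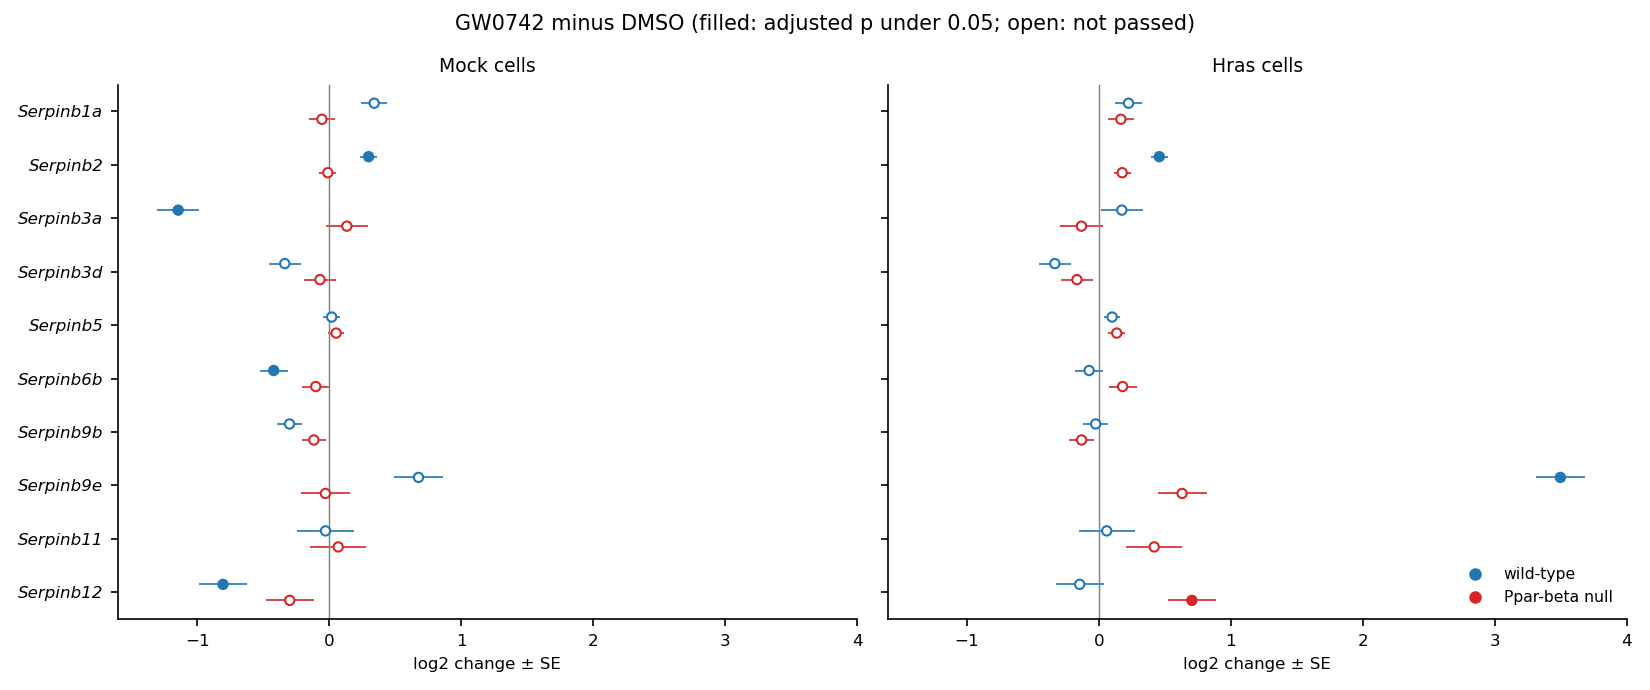
GW0742 minus DMSO difference (x axis, log2 units, bars are SE) for each member in mock and in Hras cells, blue for wild-type and red for null, filled where the adjusted p was under 0.05. Serpinb9e in wild-type Hras cells lies at 3.50, apart from all other values, and no null mock value is filled.

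Beside these ligand changes, 4 of 8 differentiated keratinocyte markers rose and 1 fell in wild-type Hras cells, and 3 rose in null Hras cells. Their log2 summed level was between 13.57 and 13.98 with DMSO and between 14.30 and 14.38 with GW0742 in wild-type Hras cells. It was between 14.25 and 14.50 against between 14.60 and 14.88 in null Hras cells. Of 14 leukocyte markers 2 rose in each of these comparisons, with sums of 10.77 to 10.87 against 11.05 to 11.18 in wild-type and 10.95 to 11.14 against 11.35 to 11.72 in null cells. In wild-type Hras cells these were H2-Ab1 (by 0.85) and Cd68 (by 0.49), and the other 12 did not pass. Cd68 and H2-Ab1 also had the highest readings of the list with GW0742, so they weigh most in that sum. In null Hras cells 6 of 8 melanocyte markers rose. Of the 10 neutrophil and mast cell markers 1 fell in wild-type Hras cells and 1 rose in null Hras cells. In wild-type mock cells no marker of any list passed. The shares of all genes that passed were 6.11% in wild-type Hras, 5.02% in null Hras and 2.86% in wild-type mock cells. The part of these markers in the members' changes was not tested.

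Between genotypes few members differed, and those that passed in the full model were higher in null cells. Without Hras 2 of 10 were higher and none lower, where 10.4% of all genes passed (4.89% higher, 5.53% lower), with a median member difference of 0.15 against 0.03 over all genes. With Hras 3 were higher and none lower, where 19.4% of all genes passed (10.1% higher, 9.32% lower), with a median of 0.13 against 0.02. The counts are too small to give a direction for the family, and in some refits below a member passed as lower. These genotype comparisons use the same DMSO groups as the Hras comparisons above and are not separate evidence.

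Serpinb9b was higher in null cells in both. Its mock DMSO arrays read 8.05, 8.22 and 8.13 in wild-type and 9.22, 9.09 and 9.01 in null cells, a difference of 0.98 ± 0.09 (1.97-fold, limma adjusted p = 2.96e-07). With Hras, 8.63, 8.70 and 8.65 stood against 9.74, 9.37 and 9.35, a difference of 0.83 ± 0.09 (1.78-fold, adjusted p = 1.53e-06). No null array reached down to a wild-type array in either comparison, and the 4 null group means were the 4 highest of the 8.

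Serpinb6b differed in mock cells and not detectably with Hras. Its mock DMSO arrays read 7.69, 7.58 and 7.79 in wild-type and 8.63, 8.68 and 8.87 in null cells (1.04 ± 0.11, 2.06-fold, adjusted p = 7.63e-07). With Hras the difference was 0.12 (95% interval -0.11 to 0.34, adjusted p = 0.543), and the arrays overlapped.

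Serpinb11 was higher in null cells with Hras, at 8.54, 9.08 and 8.99 against 7.17, 7.79 and 8.30 (1.11 ± 0.21, 2.16-fold, adjusted p = 0.000621). In mock cells its value was the opposite in sign and missed the threshold (-0.57 ± 0.21, adjusted p = 0.0985). The first null mock DMSO array, at 9.16, stood with the wild-type arrays and apart from the other null arrays at 8.37 and 8.41, and without it the difference was -0.83 (adjusted p = 0.0121). The mock value passed as well without the first (adjusted p = 0.0389) or the third (adjusted p = 0.0449) wild-type Hras DMSO array.

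Serpinb9e was higher in null Hras cells by 0.66 ± 0.19 (adjusted p = 0.0142), on overlapping arrays of 6.45, 6.46 and 6.64 against 6.60, 7.51 and 7.41. The call was lost without the first or the second wild-type array (adjusted p = 0.0514 and 0.0513), without the second (0.49, adjusted p = 0.105) or the third null array (0.54, adjusted p = 0.0841) and with these groups alone in the fit (adjusted p = 0.0751). Serpinb3d in mock cells, with 0.36 ± 0.12 (adjusted p = 0.0617), passed with these groups alone (adjusted p = 0.0401), without the second wild-type mock DMSO array (0.44, adjusted p = 0.0499) and without the first null mock DMSO array (0.43, adjusted p = 0.0481). It passed too without the null Hras GW0742 group (adjusted p = 0.0417) or without 1 of 3 arrays of other groups, namely wild-type Hras DMSO 3, wild-type mock GW0742 2 and null Hras GW0742 2 (adjusted p between 0.0378 and 0.0466). With 2 groups alone in the fit, 4 members passed in mock cells, 3 higher and 1 lower (Serpinb12, -0.30, adjusted p = 0.0301). The same count of 4 came without the first null mock DMSO array and without the third wild-type Hras DMSO array.

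**Figure D5:**
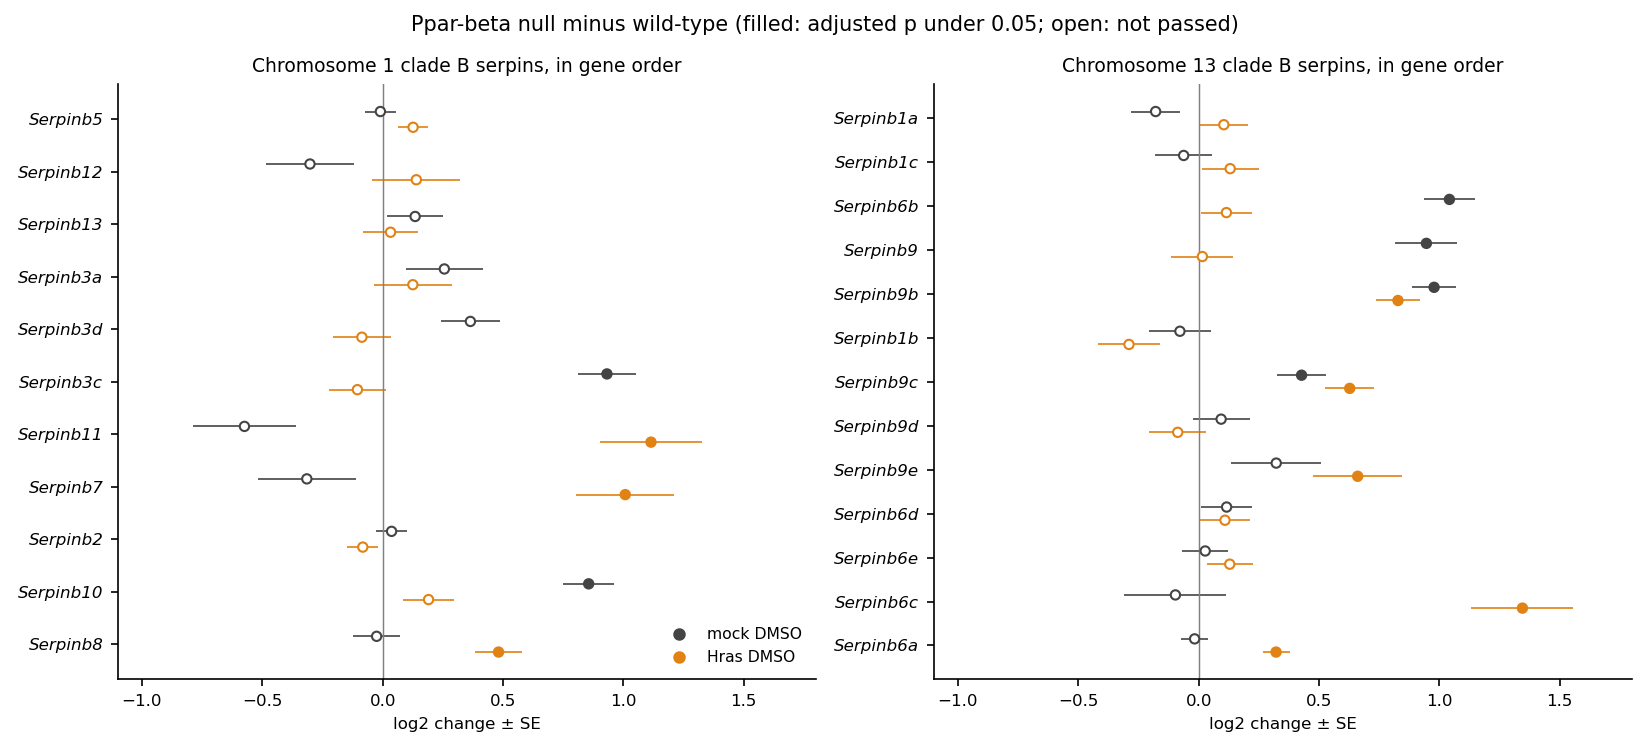
Null minus wild-type difference in DMSO cells (x axis, log2 units, bars are SE) of the 24 measured clade B serpins in gene order, in 1 panel for each chromosome, dark for mock and orange for Hras cells, filled where the adjusted p was under 0.05. All filled points lie to the right of 0, Serpinb9b with both of its points, Serpinb6b with the mock point and Serpinb11 with the Hras point.

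Cell-type markers differed between genotypes too, where 10.4% of all genes passed in mock and 19.4% in Hras DMSO cells. In mock DMSO cells 7 of 8 fibroblast markers were lower in null cells (log2 sums of 12.87 to 12.96 in wild-type and 12.08 to 12.13 in null), as were 5 of 8 melanocyte markers (13.92 to 14.00 against 13.63 to 13.68). Of 14 leukocyte markers only Lyz2, the lysozyme of myeloid cells, was higher in null mock cells, by 1.01 ± 0.14, and the sums were 11.03 to 11.10 against 11.27 to 11.35. With Hras, 6 of 8 differentiated keratinocyte markers were higher in null cells (13.57 to 13.98 against 14.25 to 14.50), as were 5 of 8 fibroblast and 4 of 14 leukocyte markers. Of the 10 neutrophil and mast cell markers 2 were lower in null mock cells, and with Hras 1 was higher and 1 lower. Their part in the members' differences was not tested.

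The order of the group means was read against the SE of a difference, and a step was called clear where it was over 2 times that SE, a looser rule than the adjusted test. For Serpinb3a the steps from wild-type mock DMSO to wild-type mock GW0742 (1.14) and from there to the highest Hras group (3.11) were clear, and the 4 Hras groups, between 3.48 and 3.66, could not be ordered. Serpinb9e stepped down clearly from wild-type Hras GW0742 at 10.01 to null Hras GW0742 at 7.80 and from there to null Hras DMSO at 7.17, though this second step is the ligand change that missed the test (adjusted p = 0.0536). The other 5 groups, from 6.84 down to 6.17, had no clear step between neighbours. Serpinb11 had 1 clear step, of 0.83, which set the wild-type Hras groups (7.81 and 7.75) below all others. Serpinb6b also had 1, of 0.94, which set the null mock groups (8.73 and 8.63) above all others.

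Serpinb5 kept its 4 mock groups between 13.12 and 13.17 with no clear step, above all Hras groups. In Serpinb12 the 4 mock groups, from 7.47 to 6.66, came before null Hras GW0742 at 6.26 and the remaining Hras groups at 5.56 to 5.27. Serpinb2 had its clear step below the wild-type GW0742 groups at 13.12 and 13.09. Serpinb1a had its step below wild-type mock GW0742 at 7.08, which is the ligand change that missed the test (adjusted p = 0.0786), and its other 7 groups ran without one from 6.74 to 6.44.

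The Hras changes of all measured clade B serpins, members included, can be laid out along the chromosomes. On chromosome 1, 10 of the 11 measured genes fell in wild-type and 9 in null cells, none rose, and the median changes were -1.16 and -1.05. Over all genes 19.0% were lower and 18.4% higher in wild-type cells, and 20.5% lower and 20.2% higher in null cells. The wild-type exception was Serpinb13, singled out after its values were seen. On chromosome 13, of 13 measured genes, 2 rose and 3 fell in wild-type cells (median -0.08), and 3 rose and 3 fell in null cells (median 0.01), which is near the shares over all genes. Several chromosome 13 genes that did not pass read only between 3.78 and 5.08 in wild-type mock DMSO cells, and Serpinb13 read 4.93. These readings were not shown to lie above background, so a fall may not appear in them. The counts therefore do not show that the clusters respond differently. No test was run between the clusters, and neighbouring copies can share probe signal.

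Among the 14 measured clade B serpins that are not members, 1 rose and 5 fell with Hras in wild-type cells (37.4% of all genes passed), and 1 rose and 6 fell in null cells (40.7% of all genes). Serpinb7, an epidermal serpin, fell by 2.37 in wild-type and by 1.05 in null cells, and the difference of 1.32 passed. Serpinb3c fell by 1.39 and by 2.43, a difference of -1.04 that passed, with the larger fall in null cells, as for Serpinb6b. Serpinb3c read 4.71 in wild-type Hras cells, which was not shown to lie above background, and null mock cells started higher. Its difference therefore does not show an unequal response. Serpinb10 fell by 1.16 and 1.83. Serpinb6c fell by 1.49 in wild-type cells, and its null minus wild-type difference was 1.44, so it resembled Serpinb11 in that respect. In all, 7 of the 14 differed between genotypes in their Hras change, 4 upward and 3 downward, where 16.8% of all genes differed.

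The shares of all genes that passed with GW0742 were 2.86% in wild-type mock, 6.11% in wild-type Hras and 5.02% in null Hras cells. Of these 14 serpins 1 fell in wild-type mock cells (Serpinb9, the granzyme B inhibitor, by 0.50 ± 0.13, adjusted p = 0.0361). In wild-type Hras cells 2 rose (Serpinb9d, above, and Serpinb8 by 0.35 ± 0.10, adjusted p = 0.0304). In null Hras cells Serpinb3c rose by 0.48 ± 0.12 (adjusted p = 0.0192) and Serpinb8 by 0.38 ± 0.10 (adjusted p = 0.022). Between genotypes 4 were higher in null mock cells (Serpinb9 by 0.95, Serpinb3c by 0.93, Serpinb10 by 0.86 and Serpinb9c by 0.43) and none lower, where 10.4% of all genes passed. With Hras 5 were higher and none lower, where 19.4% of all genes passed, with Serpinb6c at 1.34 and Serpinb7 at 1.01 the furthest.

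Proteases that clade B serpins are known to inhibit, with relatives and the urokinase receptor, made a list of 21, all measured. With Hras 7 rose and 6 fell in wild-type cells, where 37.4% of all genes passed. Plaur, the urokinase receptor, rose by 2.30 ± 0.09 and Plau, urokinase, by 1.51 ± 0.08, while the skin kallikrein Klk5 fell by 2.29 ± 0.18 and the cathepsin Ctsk by 1.68. In null cells, where 40.7% of all genes passed, 7 rose and 4 fell, with Plaur up by 2.67 and Klk5 down by 1.09. Serpinb2, which blocks Plau and Plat, fell in the same comparisons, by the 0.19 and 0.31 given above. Its wild-type call was lost in several refits. Plat itself also fell in wild-type cells, by 0.84 ± 0.10 (limma adjusted p = 3.41e-07).

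GW0742 raised 2 of the 21 in wild-type Hras cells, where 6.11% of all genes passed. These were Plat, tissue plasminogen activator, by 0.95 ± 0.10 (adjusted p = 8.34e-07) and Plaur by 0.63 ± 0.09 (adjusted p = 4.35e-05). Serpinb2 rose in these cells as well. Both protease-system genes had a smaller response in null Hras cells, with null minus wild-type differences of -0.88 for Plat and -0.80 for Plaur that passed. In wild-type mock cells none of the 21 passed, where 2.86% of all genes did. Between genotypes, 2 were higher and 4 lower in null mock cells, where 10.4% of all genes passed. In null Hras cells 3 were higher and 5 lower, where 19.4% of all genes passed, so the list moved in both directions.

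Of 14 other protease inhibitors and serpins of epidermis 12 were measured, and not all of these serpins are known to inhibit proteases. With Hras 3 rose and 6 fell in wild-type cells (37.4% of all genes passed), and 4 rose and 4 fell in null cells (40.7% of all genes). Slpi, a secreted leukocyte protease inhibitor, rose by 1.56 in wild-type cells. The secreted serpin Serpinf1, which is not known to inhibit proteases, fell by 1.77, and the cystatins Csta1 and Cst6 fell by 1.46 and 0.89. With GW0742 in wild-type Hras cells 4 rose and 1 fell (6.11% of all genes passed), with Cst6 up by 0.70 and Slpi and Csta1 by 0.69 each. In wild-type mock cells none passed, where 2.86% of all genes did.

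Some genes outside the family followed a member closely. Likeness was measured as Pearson's r over the 8 group means among 1893 genes whose means spanned at least 1 log2 unit, with no test. Serpinb2 was most like Hadhb (0.97), Hadha (0.96) and Cpt2 (0.94), which encode enzymes of mitochondrial fatty acid oxidation. Serpinb9e was most like Ifi202b (0.97), Hilpda (0.96) and Fos (0.95). Serpinb6b was most like Krt84 (0.99) and Serpinb11 most like Cyp3a13 (0.98). For Serpinb3a the 3 highest were Dtx2, Flrt1 and Susd2, each at 1.00 when rounded to 2 decimals. With 8 points and many candidates, high values arise easily, and a pattern set by 1 group or by the Hras groups is enough to give them.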

How the data were processed

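Each deposited value is a log2 expression level that the authors obtained with RMA, per the submitters' processing notes; the RMA software is not named in the sources used here. Quantile normalization within RMA hides a shift common to most genes. Of 34760 probe sets on the 24 arrays, 21640 carry 1 gene symbol in the platform annotation. A gene with several (954 genes) was read from its brightest by mean level, which gave 19937 genes, with no filter on dim ones. The fit was a limma 3.58.1 model (R 4.3.3, lmFit then eBayes, residual df 16, prior df 4.43) with a mean for each of the 8 groups and no replicate block. It gave 8 group comparisons and 4 differences between effects, with two-sided p, Benjamini-Hochberg adjustment over all genes, a threshold of 0.05 and 95% intervals. The number of arrays limits the precision. The script was tested on simulated data.

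The members and lists were chosen with earlier results of these data known. Named genes are the 10 members, up to 4 passing genes for a list and comparison by largest absolute change, and the 3 genes most like a member. Serpinb13, the wild-type Hras change of Plat and the checks of Krt5, Krt14 and Ppard fall outside this rule. Alternatives were centred arrays, the 40% dimmest genes left out, trended and robust moderation, only the compared groups' arrays, the replicate number as a block, and each array left out in turn. A model without the null Hras GW0742 group was added after seeing the data. Promoter windows are RefSeq's (GRCm38.p6), matched by symbol. The Hras, Cdkn1a and Areg genes are not analysed here.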

Additional observations from a re-analysis of the deposited data

Results flagged for a closer look

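For 4 members an effect differed between groups by a test of the difference itself (limma, adjusted over all genes), 6 differences in all. The GW0742 effect differed between genotypes for 0.848% of all genes in mock and 1.73% in Hras cells. It differed between wild-type Hras and mock cells for 2.47%. Serpinb9e responded to GW0742 less in null than in wild-type Hras cells (-2.87, adjusted p = 6.08e-07) and more in Hras than in mock wild-type cells (2.82, adjusted p = 2.68e-06). The 3 wild-type Hras arrays read 6.45 to 6.64 with DMSO and 9.84 to 10.13 with GW0742. For Serpinb3a the fall with GW0742 in wild-type mock cells differed from the null mock cells (1.28, adjusted p = 0.00387) and from the wild-type Hras cells (1.32, adjusted p = 0.00178), but the wild-type Hras arrays all read between 3.21 and 3.79, near the table's lowest value of 2.27, so the second difference does not show an unequal response. The change with Hras differed between genotypes for Serpinb6b (-0.93, adjusted p = 0.00016) and Serpinb11 (1.69, adjusted p = 0.000406). These are 2 of 10 members, where 16.8% of all genes differed, so their number is near that share. Both Serpinb9e differences contain the whole wild-type Hras change, and both Serpinb3a differences the whole wild-type mock change. The differences of each gene are therefore not separate results. Those of Serpinb6b and Serpinb11 rest on the same DMSO groups.

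A signal was also seen in data outside the gene-level fit. The 3 probe sets assigned jointly to Serpinb9d, Serpinb9e, Serpinb9f and Serpinb9g were higher with GW0742 than with DMSO in wild-type Hras cells by 2.73, 2.29 and 3.21 log2 units, with no test. No group had over 3 arrays, so single arrays could not be tested as standing apart.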

How the results depend on the processing

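Of the 120 member changes, 116 kept direction and call with arrays centred, all 60 that could be fitted without the dimmest 40% of genes, 97 of 100 without the null Hras GW0742 group, 111 with only the compared groups' arrays, 119 with the replicate block and 118 with trended, robust moderation. Centring turned 2 non-passing signs, Serpinb1a with Hras in null cells (0.0334) and Serpinb3d in the Hras minus mock difference of the GW0742 effect (-0.0200). Leaving out the dimmest 40% of genes removes 5 members (Serpinb1a, Serpinb3a, Serpinb3d, Serpinb9e, Serpinb12), so counts of passing members fell to 2 and 1 for GW0742 in wild-type mock and Hras cells, 0 in null Hras cells, 5 and 4 for Hras in wild-type and null cells, and 0 for all 3 differences of the GW0742 effect. Trended, robust moderation gave 2 for GW0742 in null Hras cells and 2 for its null minus wild-type difference in mock cells. Only the compared arrays gave 0, and 3 for that difference, and 4 between genotypes in mock cells; the cause was not tested.

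Leaving out each array in turn, the passing members ranged from 2 to 6 (GW0742, wild-type mock), 2 to 3 (wild-type Hras), 0 to 0 (null mock), 0 to 2 (null Hras), 7 to 9 (Hras, wild-type), 8 to 8 (null), 2 to 4 and 2 to 3 (genotype, mock and Hras), 1 to 1, 1 to 2 and 2 to 2 (differences of the GW0742 effect: genotype in mock, genotype in Hras, Hras minus mock) and 2 to 3 (Hras effect between genotypes). Whether the replicate numbers pair arrays was not settled: deviations of same-numbered arrays correlated from -0.287 to 0.253 over 84 pairs, with a median of 0.015. Of 24 arrays 12 agreed best with their own number, out of 3 numbers. With the replicate block only Serpinb1a (GW0742, wild-type mock) changed call, 0.34 with adjusted p = 0.0417. No member has a second probe set of its own, so that alternative could not be run.

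Some values near 0 changed sign when 1 array was left out, and none of them passed in the full model. Their ranges were Serpinb11 -0.0677 to 0.00456 and Serpinb5 -0.00474 to 0.035 for GW0742 in wild-type mock cells, and Serpinb11 -0.23 to 0.33 and Serpinb12 -0.35 to 0.0479 for GW0742 in wild-type Hras cells. The ranges were Serpinb2 -0.0349 to 0.00934, Serpinb9e -0.11 to 0.13 and Serpinb11 -0.0696 to 0.33 for GW0742 in null mock cells, and Serpinb1a -0.0828 to 0.0507 for Hras in null cells. Those seen were Serpinb5 -0.0315 to 0.0134 between genotypes in mock cells, and Serpinb12 -0.0341 to 0.34, Serpinb3a -0.0137 to 0.20 and Serpinb3d -0.20 to 0.0123 between genotypes in Hras cells. Others were Serpinb11 -0.0427 to 0.35 for the genotype difference of the GW0742 effect in mock cells, and Serpinb1a -0.17 to 0.0484, Serpinb5 -0.0294 to 0.098 and Serpinb9b -0.21 to 0.021 for that difference in Hras cells. The last were Serpinb3d -0.13 to 0.11 and Serpinb11 -0.20 to 0.36 for the Hras minus mock difference of the GW0742 effect.

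No background level was used here, so how far Serpinb3a on the Hras arrays, at 3.21 to 3.92, lies above background was not tested.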
